A study of Mus musculus with 16 samples.

Results

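Mesenchymal stromal cells of mouse hindlimb muscle were compared 8 h after an intraperitoneal injection of the neuropeptide CGRP or of PBS. The comparison takes every library labelled with the 8 h time point, 4 after CGRP and 4 after PBS, which is 8 of the 16 libraries of the study, and covers all 13949 genes that passed the filter on low counts. All mice were C57BL/6 and 8 weeks old. The other 8 libraries, 4 of each treatment at 4 h, entered the same model: they help to set the filter and the spread on which the 8 h test rests, and their own effect is set beside the 8 h effect. RNA came from 1000 double-sorted cells, was primed at the poly(A) tail, amplified by PCR and sequenced as pairs of 25-base reads. The sources used here do not give the dose of CGRP, the markers of the sort, the collection days or the number of mice behind each replicate, so the p-values measure only the spread between these samples.

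CGRP (calcitonin gene-related peptide) is released from sensory nerve endings. It acts on a receptor made of Calcrl, a G-protein-coupled receptor, and Ramp1, a membrane partner that gives it its preference for CGRP, and binding raises cAMP in the target cell. Mesenchymal stromal cells of muscle make extracellular matrix, chemokines and growth factors for muscle stem cells and immune cells, and are a main source of IL-33 in muscle.

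The 8 h libraries held 6373713 to 9600027 counts each. The labelled cell type was checked against 26 stromal genes, led by Cd34, Ly6a and Pdgfra, which summed to 9370 to 9728 CPM (counts scaled to the size of the library) after CGRP and 8617 to 9066 after PBS. Markers of other cells were checked in the same way. Macrophage markers summed to at most 15.6 CPM after CGRP and 14.2 CPM after PBS, and lymphocyte markers to at most 2.22 CPM, with Cd79b, Gzma and Il7r at 0 in every 8 h library. Erythroid markers reached 45.5 CPM in CGRP replicate 4 and at most 3.61 CPM in any PBS library. Endothelial markers summed to 397 to 464 CPM after CGRP and 460 to 504 after PBS, of which Eng, also in the stromal list, made up 309.7 to 349.9 and 345 to 369. Pericyte and smooth muscle markers summed to 172 to 237 CPM after CGRP and 201 to 283 after PBS. Schwann cell markers summed to 1038 to 1299 CPM after CGRP and 1182 to 1223 after PBS, nearly all of it Pmp22 (1002 to 1255 and 1138 to 1191). Tenocyte markers summed to 868 to 1563 CPM after CGRP and 628 to 1283 after PBS, led by Thbs4 at 731 to 1086 and 318 to 558, which did not pass the test (adjusted p = 0.316). PBS replicates 1, 2 and 3 stood apart by repeat content: reads of the gene model Gm10800 made up 1.83%, 1.77% and 2.45% of their counts, against 0.877% in PBS replicate 4 and 0.550% to 0.972% after CGRP. What this does to the comparison is measured at the end.

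After CGRP 698 genes (5.00% of those tested) rose and 512 (3.67%) fell at 8 h, 8.67% in all, at an adjusted p under 0.05 in edgeR's quasi-likelihood test. The shares of list members given below are to be read against these 5.00% and 3.67%. The largest rises, taken over called genes that reached 5 CPM in their higher group and whose groups did not overlap, were in the neuropeptide gene Gal, the chemokine Cxcl5, the AP-1 subunit Fosl1, the chemokine Ccl2, the coiled-coil gene Ccdc81 and the chemokine Ccl7, in that order. The genes of ribosome assembly, protein synthesis, folding and degradation rose by smaller factors. Genes of detoxification, nerve guidance, matrix proteoglycans and the circadian clock were among those that fell. Most changes were small: the median log2 fold change was 0.54 among the rises (middle 50% 0.41 to 0.82) and -0.59 among the falls (-0.83 to -0.41), with 116 rises and 95 falls of at least 2-fold. The median over all tested genes was -0.02. A value with ± in parentheses after a gene is its log2 fold change, CGRP over PBS, with its SE. Of the rises, 601 had all 4 CGRP libraries above all 4 PBS libraries, an order that 8.08% of all tested genes showed, and of the falls 425 had the reverse order, which 6.75% of tested genes showed. When the libraries were scaled by their upper quartile in place of TMM, which moved the median of all genes to -0.06, 531 genes rose and 649 fell, so the share of rises among the calls was 45% in place of 57.7%.

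**Figure D1:**
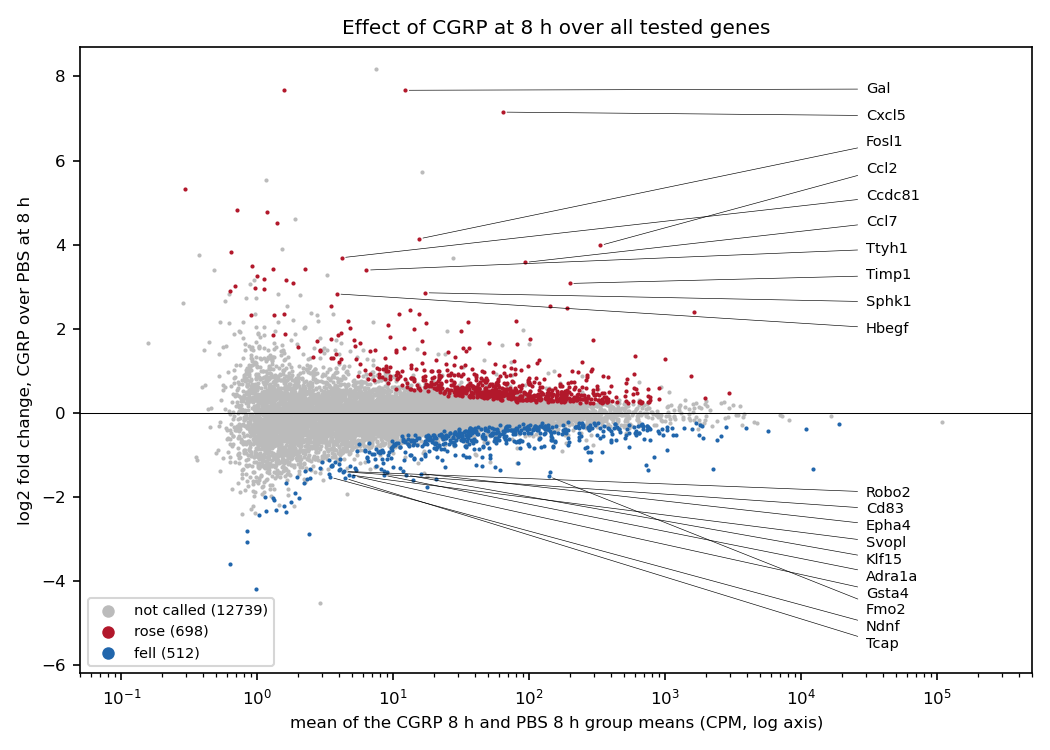
Log2 fold change at 8 h (CGRP over PBS, vertical axis) against the mean of the group means in CPM (horizontal log axis) for the 13949 tested genes, with the 698 rises in red, the 512 falls in blue and the 10 highest and 10 lowest named genes labelled. Gal, Cxcl5 and Fosl1 lie highest among the labelled genes, and the labelled falls lie between -1.56 and -1.40.

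The 4 CGRP libraries did not respond equally. On the first principal component, which held 47.9% of the variance over 8794 genes, CGRP replicates 1 and 4 lay at 23.1 and 21.7, replicates 2 and 3 at 10.2 and 6.06, and the PBS libraries between -19.99 and -9.51. Among the 698 rises, 435 (62.3%) were higher in both CGRP replicates 1 and 4 than in both replicates 2 and 3, an order found in 19.6% of all tested genes and noticed after the values were seen. The count of calls moved with single libraries. It was 577 without CGRP replicate 1, 676 without CGRP replicate 4, 749, 789 and 696 without PBS replicates 1, 3 and 4, and 1040 to 1279 without any one of the other 3. The cause of the split among the CGRP libraries was not tested. In a fit of the 8 h libraries alone 1225 genes were called, among them 1035 of the 1185 main calls tested there. Of the genes named by rule, Ccl2 (adjusted p = 0.0587), Fmo2 (0.0568), Gm10800 (0.0635), Lamc1 (0.0580), Nfkb2 (0.107), Parp14 (0.0693), Pdgfd (0.0604), Pmvk (0.0681) and Tap2 (0.0724) did not pass in that fit.

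Peptide genes of the CGRP and galanin systems rose from few or no reads. Gal, which encodes galanin, a neuropeptide of sensory and endocrine cells, was at 22.2, 40.3, 13.6 and 21.1 CPM in the CGRP libraries and at 0, 0, 0 and 0.403 CPM in the PBS libraries. It was close to absent after PBS and present in every CGRP library, with 863 pooled counts against 3, a ratio of 234 with a 95% interval of 79.8 to 1137 that covers counting error only (adjusted p = 0.00121). Calca, the gene of CGRP itself, had 1.52, 7.55, 0.521 and 2.91 CPM after CGRP and 0 in every PBS library. Its 109 pooled counts against 0 make it at least 29.5-fold higher over a floor of 3 counts for the PBS group (adjusted p = 0.00170). Calcb, the gene of the second CGRP form, rose from 8 to 51 pooled counts, a ratio of 5.18 (2.44 to 12.7, adjusted p = 0.0443). Ramp3, a partner that turns Calcrl into an adrenomedullin receptor, rose from 4 to 40 pooled counts, a ratio of 8.13 (2.94 to 31.3, adjusted p = 0.0335). Both of these calls rest on few reads. Left out one at a time, single libraries ended both: Calcb lost its call without CGRP replicate 1, 3 or 4 or PBS replicate 1, 2 or 4, and Ramp3 without CGRP replicate 2, 3 or 4 or PBS replicate 1, 2, 3 or 4, with adjusted p up to 0.122 and 0.0858.

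The receptor genes that the cells express at higher counts did not pass the test at 8 h. Calcrl was at 50.6, 52.4, 47.1 and 56.7 CPM after CGRP and 41.0, 39.8, 43.3 and 45.1 CPM after PBS, so the groups did not overlap, but the difference was small (log2 fold change 0.29 ± 0.12 (SE), adjusted p = 0.144). Ramp1 had a log2 fold change of -0.26 ± 0.15, adjusted p = 0.352, and Ramp2, the other adrenomedullin partner, 0.074 ± 0.12, adjusted p = 0.784. Il33, an alarmin of stromal cells that acts on regulatory T cells in muscle, was at 376, 199, 188 and 375 CPM after CGRP and 177, 125, 241 and 266 CPM after PBS. CGRP replicates 1 and 4 were above every PBS library and replicates 2 and 3 lay among them, and the difference did not pass (log2 fold change 0.49 ± 0.35 (SE), adjusted p = 0.460). At 4 h, in libraries that the 8 h comparison does not share, Il33 had a log2 fold change of 1.60 (adjusted p = 0.00863). The difference between the effects, -1.11 ± 0.49 on the log2 scale, did not pass its own test (adjusted p = 0.324).

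Downstream of the receptor, 2 of the 31 tested genes of cAMP and G-protein machinery rose (6.45%, against 5.00% of all genes) and 3 fell (9.68%, against 3.67%), with a median of -0.087. The rises are near the background share. Without 1 library 1 to 2 rose and 0 to 4 fell, with no falls without CGRP replicate 1 or PBS replicate 1. Adcy5, an adenylyl cyclase gene, rose (log2 fold change 0.99, adjusted p = 0.000906). Grk5, a kinase that desensitises G-protein-coupled receptors, rose as well (0.60 ± 0.15, adjusted p = 0.0182). The phosphodiesterases Pde7b (-0.75 ± 0.19, adjusted p = 0.0138) and Pde10a (-0.58 ± 0.15, adjusted p = 0.0197), which break down cyclic nucleotides, fell. Of 20 tested targets of CREB, the transcription factor that cAMP activates, none rose in edgeR's test and 2 fell (10%), Pde10a and the insulin signalling adaptor Irs2 (-0.78 ± 0.19, adjusted p = 0.0125), with a median of -0.15. Of these calls, Grk5 was lost without PBS replicate 3, Pde7b without CGRP replicate 1 or PBS replicate 1, Pde10a without CGRP replicate 1 or PBS replicate 1 or 4 and Irs2 without PBS replicate 1 or 3. Adcy5 kept its call in every fit without 1 library.

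Of 16 tested chemokine genes 5 rose (31.2%, against 5.00% of all genes; median 0.18) and none fell. Cxcl5, a neutrophil chemokine, was at 237, 33.0, 41.2 and 197 CPM after CGRP and 0, 2.49, 1.22 and 0 CPM after PBS. All CGRP libraries were above all PBS libraries, with CGRP replicates 1 and 4 far above replicates 2 and 3, and the pooled counts were 4334 against 25, a ratio of 141 (95.4 to 218 by counting error alone, adjusted p = 0.0341). Ccl2, a chemokine for monocytes, was at 867, 390.2, 209.7 and 1031 CPM after CGRP and 15.6, 101, 36.5 and 6.58 CPM after PBS (log2 fold change 3.98 ± 0.91 (SE), adjusted p = 0.0191). Ccl7, its neighbour in the same chemokine cluster and also a monocyte attractant, was at 236, 127, 79.8 and 245 CPM and 10.2, 28.6, 13.5 and 5.78 CPM (log2 fold change 3.57 ± 0.72 (SE), adjusted p = 0.0106). In both, the groups did not overlap and CGRP replicates 1 and 4 were again the highest. Cxcl13, a chemokine for B cells, was at 42.9, 20.6, 21.7 and 18.8 CPM after CGRP and 4.20, 5.56, 4.86 and 5.91 CPM after PBS (log2 fold change 2.34 ± 0.29 (SE), adjusted p = 7.06e-05), with CGRP replicate 1 above the other 3. Cxcl14 rose with little spread, from 520.2, 611, 579 and 609.9 CPM after PBS to 1409, 1260.0, 1339 and 1626 CPM after CGRP (log2 fold change 1.28 ± 0.12 (SE), adjusted p = 2.82e-06). The Cxcl5 call was lost without CGRP replicate 1 or 4 or PBS replicate 1, 2, 3 or 4 (adjusted p up to 0.0968) and the Ccl2 call without CGRP replicate 1 or 4 or PBS replicate 1, 3 or 4 (up to 0.0591), while the log2 fold changes stayed within 6.65 to 8.39 and 3.63 to 5.03. Without 1 library, 3 to 5 chemokine genes were called.

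The wider inflammatory lists had few calls each, with shares to be read against 5.00% rises and 3.67% falls among all genes. Of 29 tested inflammatory and NF-kB genes 2 rose (6.90%), the mitochondrial superoxide dismutase Sod2 (0.74 ± 0.20, adjusted p = 0.0315) and the NF-kB subunit Nfkb2 (0.63 ± 0.19, adjusted p = 0.0403), and none fell (median 0.19). Of 25 AP-1 and immediate early genes 2 rose (8%), Fosl1 and Socs3, a feedback inhibitor of cytokine receptors (0.59 ± 0.17, adjusted p = 0.0402). Fosl1 was at 45.1, 16.2, 11.6 and 44.0 CPM after CGRP and 1.53, 2.20, 1.67 and 1.21 CPM after PBS, with every CGRP library above every PBS library (log2 fold change 4.13 ± 0.76 (SE), adjusted p = 0.00600). In the IL-6 family list, besides Socs3, the receptor genes Lifr (-0.93 ± 0.11, adjusted p = 3.59e-05) and Il11ra1 (-0.38 ± 0.083, adjusted p = 0.00644) fell, which makes 1 rise and 2 falls among 17 (5.88% and 11.8%). Of 14 stromal cytokines for immune cells 2 fell (14.3%), Flt3l, a growth factor for dendritic cells (-0.62 ± 0.17, adjusted p = 0.0244), and Il16 (-0.51 ± 0.15, adjusted p = 0.0402). Of 20 genes of MHC class I presentation 3 fell (15%), H2-T23 (-0.51 ± 0.12, adjusted p = 0.0113), H2-M3 (-0.42 ± 0.10, adjusted p = 0.0145) and the peptide transporter Tap2 (-0.27 ± 0.083, adjusted p = 0.0432). The H2 genes have close copies and their counts may share reads. Left-out libraries ended the calls of Sod2 (CGRP replicate 1 or 4 or PBS replicate 1, 2, 3 or 4), Nfkb2 (CGRP replicate 1 or 4 or PBS replicate 1, 2, 3 or 4), Socs3 (CGRP replicate 1, 2 or 4 or PBS replicate 1, 2, 3 or 4), Flt3l (CGRP replicate 1, 3 or 4 or PBS replicate 1 or 3), Il16 (CGRP replicate 1, 2 or 4 or PBS replicate 1, 2, 3 or 4), H2-M3 (CGRP replicate 1 or PBS replicate 4) and Tap2 (CGRP replicate 1, 3 or 4 or PBS replicate 1, 3 or 4). The interferon response had 1 rise and 1 fall among 35 genes (2.86% each), complement 2 falls among 14 (14.3%) and the prostaglandin pathway 1 fall among 16 (6.25%). Without 1 library the NF-kB list had 0 to 4 rises and the MHC class I list 1 to 3 falls, with 1 fall without CGRP replicate 1 or PBS replicate 4.

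**Figure D2:**
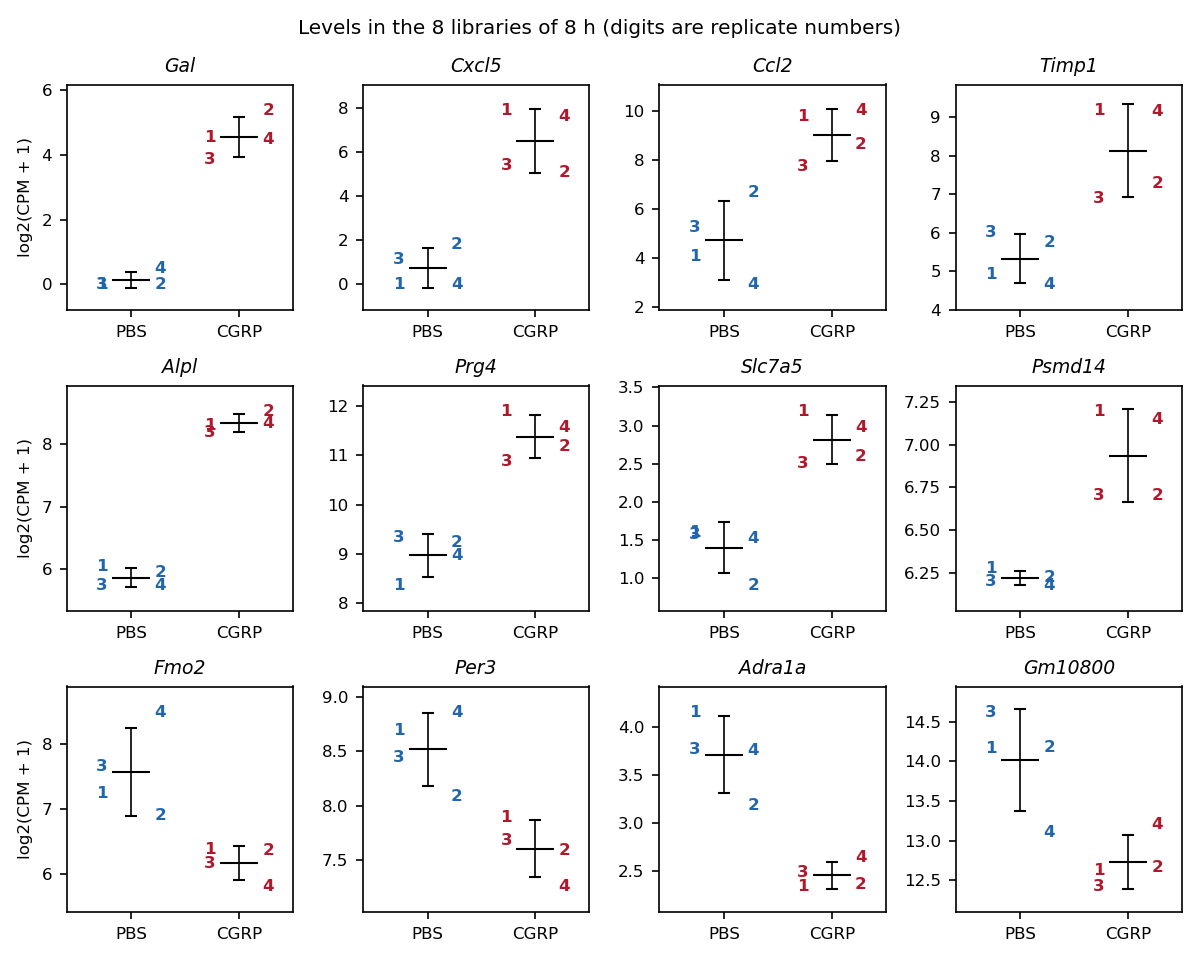
Level of 12 genes in each 8 h library, as log2(CPM + 1), with the 4 CGRP and 4 PBS libraries side by side, digits for replicate numbers and bars for the mean ± SD (n = 4). Gal, Alpl, Prg4, Slc7a5 and Psmd14 separate the groups in every library, Cxcl5, Ccl2 and Timp1 are highest in CGRP replicates 1 and 4, and Gm10800 sets PBS replicates 1, 2 and 3 apart from PBS replicate 4.

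Enzymes that cut or build the pericellular matrix had more rises than falls among their calls. Of 30 tested matrix proteases and inhibitors 8 rose and 2 fell (26.7% and 6.67%, median 0.16), against 5.00% and 3.67% of all genes. Timp1, an inhibitor of metalloproteinases, was at 576, 155, 118 and 569.6 CPM after CGRP and 29.0, 52.1, 63.3 and 24.2 CPM after PBS, with CGRP replicates 1 and 4 several times above replicates 2 and 3 but no overlap with PBS (log2 fold change 3.08 ± 0.66 (SE), adjusted p = 0.0141). Serpine2, a secreted inhibitor of serine proteases, was at 1852, 2003, 2153 and 2074 CPM and 942, 1141, 1238 and 1089.6 CPM, a smaller and more even rise (log2 fold change 0.87 ± 0.081 (SE), adjusted p = 1.04e-06). The metalloproteinase genes Mmp11 (0.78 ± 0.11, adjusted p = 0.000153) and Adam12 (2.45 ± 0.45, adjusted p = 0.00399) rose as well. In the list of hyaluronan and UDP-sugar synthesis 6 of 18 rose (33.3%) and none fell (median 0.41), led by p-value by Ugdh, which makes UDP-glucuronate (0.70 ± 0.10, adjusted p = 0.000121), Uap1, which makes UDP-N-acetylglucosamine (0.79 ± 0.17, adjusted p = 0.00808), and Uxs1, which makes UDP-xylose (0.54 ± 0.14, adjusted p = 0.0160). Prg4, the gene of the lubricant lubricin, was chosen here after its values were seen. It was at 3773, 2301, 1885 and 2998 CPM after CGRP and 329, 599, 647 and 503 CPM after PBS (log2 fold change 2.40 ± 0.29 (SE), adjusted p = 0.000465). The lowest CGRP library was above the highest PBS library. Without 1 library, 6 to 9 of the protease list and 3 to 6 of the hyaluronan list rose, and Uxs1 lost its call without CGRP replicate 1 or 4. The 6 rises of the hyaluronan list include Hmmr, taken up below as a spindle gene with few counts, whose call was lost without PBS replicate 3 or 4.

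A further 3 genes, outside the lists, were chosen here after their values were seen. Alpl, the alkaline phosphatase of mineralising tissue, was at 315, 366, 289 and 323 CPM after CGRP and 64.6, 60.3, 52.6 and 52.4 CPM after PBS. The 4 CGRP libraries lay close together and far above the 4 PBS libraries (log2 fold change 2.49 ± 0.16 (SE), adjusted p = 1.08e-07). Lgals3, the gene of the lectin galectin-3, was at 157, 162, 142 and 167 CPM and 39.7, 59.6, 49.7 and 38.8 CPM (log2 fold change 1.74 ± 0.12 (SE), adjusted p = 6.42e-09), again with narrow groups that did not overlap. Mif, a cytokine gene with CGRP replicates 1 and 4 above replicates 2 and 3, was at 115, 78.0, 67.2 and 96.5 CPM and 37.3, 46.3, 38.1 and 42.5 CPM (log2 fold change 1.12 ± 0.13 (SE), adjusted p = 2.55e-05). These 3 genes were called under every alternative that was tried.

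Further rises among the 10 largest were in genes of lipid and growth factor signalling and in less studied genes. Sphk1, the kinase that makes sphingosine-1-phosphate, was at 39.9, 24.4, 13.6 and 42.5 CPM after CGRP and 4.45, 3.51, 6.53 and 2.15 CPM after PBS (log2 fold change 2.85 ± 0.61 (SE), adjusted p = 0.0129). Hbegf, a ligand of the EGF receptor, was at 12.9, 3.23, 3.33 and 7.49 CPM and 1.15, 2.05, 0 and 0.537 CPM, and its call was close to the threshold (log2 fold change 2.83 ± 0.83 (SE), adjusted p = 0.0490). The Hbegf call was lost without CGRP replicate 1 or 4 or PBS replicate 1, 3 or 4, with adjusted p up to 0.157. Ccdc81, a coiled-coil protein gene, was at 5.26, 7.87, 9.79 and 8.11 CPM after CGRP and 0.509, 0.439, 0 and 1.34 CPM after PBS (log2 fold change 3.69 ± 0.48 (SE), adjusted p = 7.06e-05). Ttyh1, an anion channel family gene, was at 12.3, 13.3, 7.19 and 13.6 CPM and 0.636, 0.732, 2.13 and 0.941 CPM (log2 fold change 3.39 ± 0.40 (SE), adjusted p = 3.13e-05). Both were several times higher in every CGRP library than in any PBS library. Outside the 10 largest rises, Mt2, a metallothionein that binds zinc and copper, rose from 43.0, 42.6, 48.0 and 31.0 CPM after PBS to 359, 137, 108 and 359.5 CPM after CGRP (log2 fold change 2.55 ± 0.52 (SE), adjusted p = 0.0113).

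The machinery of protein synthesis, folding and degradation held 5 lists in which members rose and none fell. Of 32 tested genes of ribosome biogenesis and translation factors 21 rose (65.6%; median 0.64). Eif5a, a translation elongation factor, was at 1033, 589.7, 585 and 856 CPM after CGRP and 387, 438, 434 and 362 CPM after PBS (log2 fold change 0.92 ± 0.16 (SE), adjusted p = 0.00194). Eif2s2, a subunit of the factor that brings the initiator tRNA, rose (0.63 ± 0.12, adjusted p = 0.00178), as did Rrp12, which helps to export and mature ribosomal subunits (1.42 ± 0.26, adjusted p = 0.00208). In 31 of the 32 genes both CGRP replicates 1 and 4 were above both replicates 2 and 3. Of 63 cytosolic ribosomal protein genes 16 rose (25.4%; median 0.22), among them Rps6 (0.52 ± 0.10, adjusted p = 0.00229), Rpl18 (0.41 ± 0.083, adjusted p = 0.00379) and Rpl27 (0.52 ± 0.12, adjusted p = 0.0106). These genes have many processed copies in the genome, and how reads that map to several places were counted is not given. Without CGRP replicate 1 the rises were 10 in ribosome biogenesis and 2 among ribosomal proteins, and Rpl27 was no longer called. Across the fits without 1 library the medians of the 2 lists stayed within 0.52 to 0.72 and 0.17 to 0.29.

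Of 31 proteasome subunits 19 rose by small amounts (61.3%; median 0.32), and in 23 of the 31 both CGRP replicates 1 and 4 were above both replicates 2 and 3. Psmd14, the deubiquitinase of the proteasome lid, was at 145, 103, 103 and 141 CPM after CGRP and 76.5, 73.8, 72.6 and 71.3 CPM after PBS (log2 fold change 0.74 ± 0.11 (SE), adjusted p = 0.000323), so that the lowest CGRP library exceeded the highest PBS library. Psmd1, a scaffold of the regulatory particle (0.45 ± 0.077, adjusted p = 0.000977), and Psmb3, a subunit of the core ring (0.48 ± 0.09, adjusted p = 0.00205), also rose. At 4 h 5 of the 31 had risen (median 0.15), against 7.84% of all genes, while 31 of the 32 ribosome biogenesis genes had (median 0.87). The difference between the effects at 8 h and 4 h was called for 0 genes of either list. Among heat shock proteins and cytosolic chaperones 9 of 26 rose (34.6%; median 0.32), including the chaperonin subunits Cct3 (0.62 ± 0.12, adjusted p = 0.00379) and Tcp1 (0.48 ± 0.11, adjusted p = 0.0113) and the Hsp110 family member Hspa4 (0.62 ± 0.13, adjusted p = 0.00488). Among the chaperones of the endoplasmic reticulum 1 of 25 was called, Herpud1, which fell (-0.53 ± 0.087, adjusted p = 0.000744), and the median of that list was 0.02. Without CGRP replicate 1, 8 proteasome genes and 2 cytosolic chaperones rose, and Tcp1 lost its call without CGRP replicate 1 or 4.

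Genes of the amino acid response, with amino acid uptake, amino acid synthesis and tRNA charging, had 12 rises of 29 and no fall (41.4%, median 0.31). The rises were 11 or 12 in every fit without 1 library. With the Gm10800 share as a covariate, taken up at the end, 5 rose and 1 fell. In that fit 213 of all 13949 tested genes rose and 179 fell. Slc7a5, the light chain of the LAT1 amino acid transporter, was at 8.09, 5.07, 4.69 and 6.88 CPM after CGRP and 2.04, 0.879, 1.97 and 1.88 CPM after PBS (log2 fold change 1.85 ± 0.34 (SE), adjusted p = 0.00165). Every CGRP library was above every PBS library. Asns, asparagine synthetase, rose (1.33 ± 0.24, adjusted p = 0.00304), as did Mthfd2, a mitochondrial enzyme of folate metabolism (0.92 ± 0.18, adjusted p = 0.00303). The aminoacyl-tRNA synthetases Aars (0.39 ± 0.094, adjusted p = 0.0129), Tars (0.53 ± 0.12, adjusted p = 0.00867) and Yars (0.49 ± 0.10, adjusted p = 0.00379), whose promoters are printed with the motif search, rose by smaller amounts.

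The promoters of the tested genes, and of several gene lists among them, were searched for short motifs on both strands. The windows of 300 bases (250 before to 50 after the start) came from RefSeq, GRCm38.p6, and 9989 of the tested genes have one. In all, 11 motifs were searched, and those apart from the cAMP response element were picked after the values were seen. The letters TGATGCAA, a form of the amino acid response element that ATF4 binds with C/EBP proteins, were in the windows of 6 of the 23 amino acid genes with a window (26.1%), against 0.711% of tested genes and 0.895% of all 32851 windows. They were in 0.909% of genes that rose and 1.97% of genes that fell. Of the 6 list genes with the letters 3 rose, and Iars, Slc7a11 and Vldlr did not pass the test. Of the 17 without them 6 rose. The list was drawn up around the amino acid response and holds Atf4 itself, Ddit3 and Trib3. Its share of this element may follow from that make-up and says nothing about CGRP. The 4 stretches show the match in capitals, with the reverse complement where it lies on the other strand, each read 5′ to 3′ along its gene, with coordinates on GRCm38.p6. Slc7a11, a cystine transporter gene, holds the letters on both strands, and its log2 fold change was 0.42 ± 0.56, adjusted p = 0.730.
Aars, chr8:111033700-111033767, forward strand: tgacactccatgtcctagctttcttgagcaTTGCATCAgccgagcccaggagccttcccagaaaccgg
Tars, chr15:11399636-11399703, reverse strand: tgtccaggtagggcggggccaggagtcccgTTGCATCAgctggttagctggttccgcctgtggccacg
Yars, chr4:129189876-129189932, forward strand: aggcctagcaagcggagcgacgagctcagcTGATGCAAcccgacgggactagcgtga
Slc7a11, chr3:50443642-50443709, reverse strand: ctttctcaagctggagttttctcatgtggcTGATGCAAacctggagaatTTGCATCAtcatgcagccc

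The E-box letters CACGTG, the core site of MYC and related factors, were in the windows of 8 of the 24 ribosome biogenesis genes with one (33.3%), against 11.7% of tested genes, 14.5% of genes that rose and 13.5% of genes that fell. The share was 31.2% among CREB targets, 29.4% among clock genes and 25% among glucocorticoid genes, lists in which no or few members rose. Of the 8 ribosome biogenesis genes with the letters 5 rose, and of the 16 without them 11 rose. The stretches of 3 that rose, Eif5a, the RNA helicase gene Eif4a1 (0.53 ± 0.13, adjusted p = 0.0106) and the ribosome assembly gene Pes1 (0.42 ± 0.11, adjusted p = 0.0243), are shown with the match in capitals. Left-out libraries ended the calls of Eif4a1 (CGRP replicate 1) and Pes1 (CGRP replicate 1 or 4 or PBS replicate 1, 2 or 4).
Eif5a, chr11:69921425-69921490, reverse strand: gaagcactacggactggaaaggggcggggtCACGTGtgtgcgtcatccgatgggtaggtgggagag
Eif4a1, chr11:69672577-69672642, reverse strand: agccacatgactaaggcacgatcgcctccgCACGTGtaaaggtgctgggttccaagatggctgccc
Pes1, chr11:3963947-3964004, forward strand: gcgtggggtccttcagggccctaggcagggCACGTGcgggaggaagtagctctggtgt

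The full cAMP response element, TGACGTCA, was in the windows of 3.45% of genes that rose, 1.12% of genes that fell and 3.52% of tested genes. Of the 10 named genes with the largest rises only Gal, Sphk1, Timp1 and Ttyh1 have a window in the table, and 0 of these 4 hold the full element. Its short form TGACG was in 3 of these 4, Gal, Sphk1 and Timp1, and in 38.2% of genes that rose, 28.7% of genes that fell and 35.0% of tested genes. A match or its absence in these windows is a description of letters and says nothing about whether a factor binds.

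**Figure D3:**
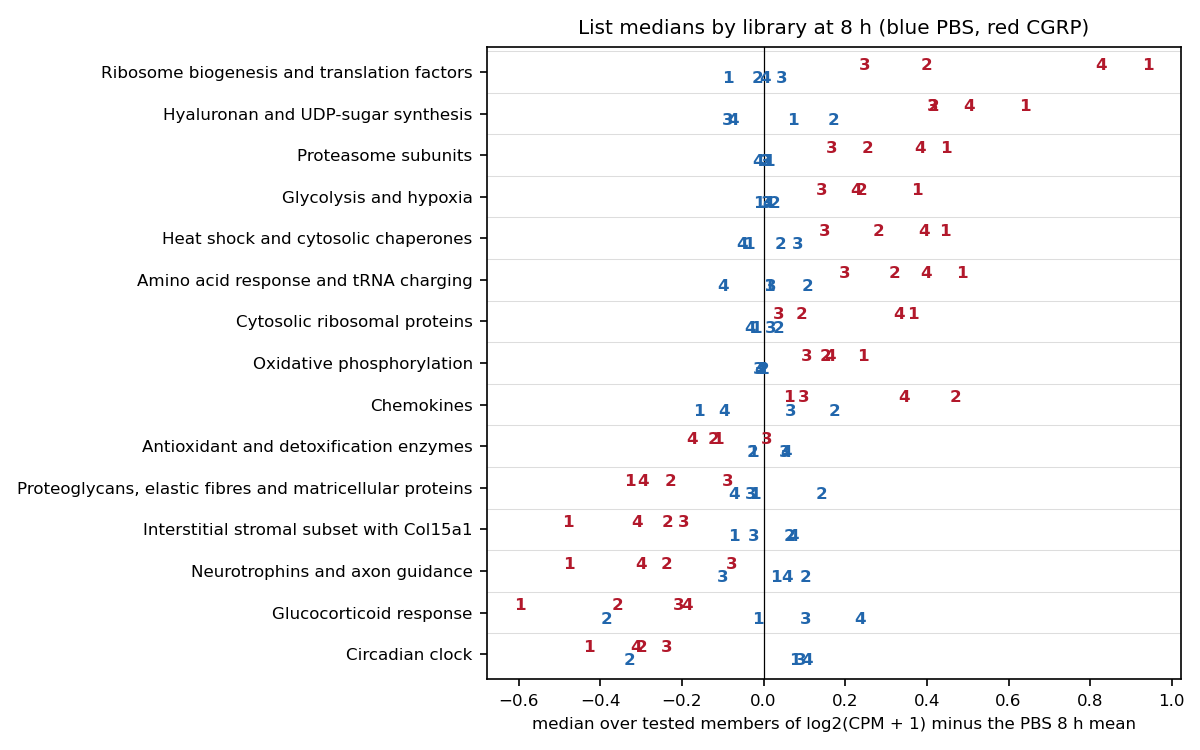
Median over the tested members of 15 gene lists of log2(CPM + 1) minus the PBS mean, for each 8 h library, with digits for replicate numbers, CGRP in red and PBS in blue. In ribosome biogenesis, proteasome and chaperone genes all CGRP medians lie above all PBS medians and CGRP replicates 1 and 4 are the highest, while in the clock and glucocorticoid lists PBS replicate 2 lies among the CGRP libraries.

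Some genes of energy metabolism rose. Of 30 glycolysis and hypoxia genes 7 rose and none fell (23.3%; median 0.32), among them Pgk1 (0.82 ± 0.13, adjusted p = 0.000515), Gapdh (0.54 ± 0.084, adjusted p = 0.000424) and Tpi1 (0.36 ± 0.07, adjusted p = 0.00271), enzymes of glycolysis. Of 40 genes of oxidative phosphorylation 12 rose and none fell (30%; median 0.16), led by p-value by Uqcrq of complex III (0.52 ± 0.10, adjusted p = 0.00329), Ndufa8 of complex I (0.42 ± 0.09, adjusted p = 0.00558) and Cox5a of complex IV (0.51 ± 0.11, adjusted p = 0.00694). Without 1 library the glycolysis count was 5 to 9. The oxidative phosphorylation count fell to 3 without CGRP replicate 1 or without PBS replicate 4. Of 32 genes of cholesterol synthesis 1 rose and 1 fell (3.125% each), shares under the 5.00% and 3.67% of all genes. The rise was in Pmvk, a kinase of the mevalonate pathway (0.54 ± 0.17, adjusted p = 0.0496). The fall was in the sterol exporter Abca1 (-0.50 ± 0.12, adjusted p = 0.00949). In the adipogenic list 2 of 23 rose and 1 fell (8.696% and 4.35%). Pmvk lost its call without CGRP replicate 1, 2 or 4 or PBS replicate 1, 2, 3 or 4 (adjusted p up to 0.167).

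Detoxification enzymes split. Of 31 tested antioxidant and detoxification genes 6 rose and 9 fell (19.4% and 29.0%, against 5.00% and 3.67% of all genes; median -0.031). Fmo2, a flavin-containing monooxygenase, was at 81.8, 81.0, 70.2 and 55.1 CPM after CGRP and 149, 119, 199.9 and 356 CPM after PBS (log2 fold change -1.51 ± 0.29 (SE), adjusted p = 0.00690). Every CGRP library was below every PBS library, and PBS replicate 4 was the highest. Gsta4, a glutathione transferase for lipid peroxidation products (-1.50 ± 0.35, adjusted p = 0.0104), Gstt1, another transferase (-0.69 ± 0.13, adjusted p = 0.00205), and Ephx1, microsomal epoxide hydrolase (-0.81 ± 0.13, adjusted p = 0.000806), fell. Sod3, the extracellular superoxide dismutase, rose from 583, 674, 628 and 546 CPM after PBS to 851, 884, 964 and 894 CPM after CGRP (log2 fold change 0.56 ± 0.083 (SE), adjusted p = 0.000269). Glutathione transferase genes have close family members, and 25-base reads may not separate them. Without 1 library 7 to 9 of the list fell and 3 to 7 rose, with 3 rises without CGRP replicate 1 or PBS replicate 2.

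Among genes of nerve and vessel contact the falls outnumbered the rises. Among 31 genes of axon guidance and neurotrophins there were 5 falls (16.1%, against 3.67% of all genes) and 1 rise, Gal (3.23%, against 5.00%), with a median of -0.27. Sema5a, a guidance semaphorin, was at 20.4, 29.2, 29.8 and 26.3 CPM after CGRP and 66.0, 72.8, 59.4 and 57.9 CPM after PBS (log2 fold change -1.28 ± 0.14 (SE), adjusted p = 4.74e-06). Epha4, an ephrin receptor (-1.45 ± 0.24, adjusted p = 0.000685), Robo2, a receptor for Slit proteins (-1.40 ± 0.37, adjusted p = 0.0220), and Nrp1, a receptor for semaphorins and VEGF (-0.65 ± 0.083, adjusted p = 4.67e-05), fell, as did Ndnf, a secreted neuron-derived factor (-1.53 ± 0.38, adjusted p = 0.0137). Of 30 vasoactive receptors and angiogenic factors 3 rose and 5 fell (10% and 16.7%, median -0.23). Adra1a, an alpha-adrenergic receptor, was at 4.04, 4.10, 4.58 and 5.20 CPM after CGRP and 16.8, 8.05, 12.6 and 12.5 CPM after PBS, with the CGRP libraries close together and all below PBS (log2 fold change -1.48 ± 0.28 (SE), adjusted p = 0.00217). Bdkrb1, the inducible bradykinin receptor, rose (1.76 ± 0.42, adjusted p = 0.0107). Of 19 ion channel genes 4 fell (21.1%), among them the sodium channel Scn7a (-0.70 ± 0.11, adjusted p = 0.000334) and the potassium channel subunit Kcng1 (-0.99 ± 0.28, adjusted p = 0.0313), and 1 rose (5.26%), the mechanically gated channel Piezo1 (0.67 ± 0.20, adjusted p = 0.0370). Robo2 lost its call without CGRP replicate 1 or 4 or PBS replicate 3 or 4, Kcng1 without CGRP replicate 1, 2 or 4 or PBS replicate 3 or 4 and Piezo1 without CGRP replicate 2, 3 or 4 or PBS replicate 3 or 4. Without 1 library 3 to 8 guidance genes fell, the fewest without CGRP replicate 1 or 4, and 1 to 5 vasoactive genes, the fewest without CGRP replicate 1 or PBS replicate 4. The falls among ion channels were 1 to 4, with 1 without CGRP replicate 1 or PBS replicate 3 or 4.

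Structural matrix genes that were called mostly fell. Of 30 genes of proteoglycans, elastic fibres and matricellular proteins 7 fell and 1 rose (23.3% and 3.33%, median -0.26), against 3.67% and 5.00% of all genes. The small leucine-rich proteoglycan genes Ogn (-0.66 ± 0.10, adjusted p = 0.000326) and Podn (-0.59 ± 0.094, adjusted p = 0.000515) and Tnxb, a tenascin (-0.53 ± 0.087, adjusted p = 0.000744), led the falls by p-value. Of 28 collagens and collagen enzymes 1 fell, Col14a1 (-0.47 ± 0.12, adjusted p = 0.0154), and 1 rose, the crosslinking enzyme Lox (1.11 ± 0.30, adjusted p = 0.0353), 3.57% each, with a median of -0.047. Basement membrane genes had 3 falls, with Smoc2 (-0.42 ± 0.083, adjusted p = 0.00298) and Lamb2 (-0.33 ± 0.094, adjusted p = 0.0313) among them, and 1 rise, Lamc1 (0.26 ± 0.073, adjusted p = 0.0300), among 14 (21.4% and 7.14%). In TGF-beta and BMP signalling Tgfbi, a secreted adhesion protein (-0.88 ± 0.10, adjusted p = 5.59e-06), and the ligand gene Gdf10 (-0.82 ± 0.16, adjusted p = 0.00463) fell and Bmp6 rose (0.93 ± 0.23, adjusted p = 0.0144), with 1 rise and 3 falls among 35 (2.86% and 8.57%). In the Wnt list, also with 1 rise and 3 falls, among 27 (3.70% and 11.1%), the receptor Fzd4 (-0.69 ± 0.12, adjusted p = 0.00109) and the ligand Wnt5a (-0.53 ± 0.15, adjusted p = 0.0279) fell and the ligand Wnt2 rose (1.15 ± 0.33, adjusted p = 0.0408). Without 1 library the falls among basement membrane genes were 1 to 2, never 3, with 1 without CGRP replicate 1 or PBS replicate 2. Left-out libraries ended the calls of Col14a1 (CGRP replicate 1, 2 or 4), Lox (CGRP replicate 1, 2 or 4 or PBS replicate 1, 3 or 4), Lamc1 (CGRP replicate 2 or 4 or PBS replicate 1, 2 or 4), Lamb2 (CGRP replicate 1 or 4 or PBS replicate 2 or 4), Bmp6 (CGRP replicate 1 or PBS replicate 4), Wnt5a (CGRP replicate 2 or 4 or PBS replicate 1, 2 or 4) and Wnt2 (CGRP replicate 1 or 4 or PBS replicate 1, 3 or 4).

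The markers that divide muscle stromal cells into subsets moved unequally. Of 18 genes of the interstitial subset that is marked by Col15a1, 8 fell (44.4%, against 3.67% of all genes) and 2 rose, Cxcl14 and Fgl2 (11.1%, against 5.00%), with a median of -0.27. Without 1 library 6 to 7 of them fell, never 8, and 2 to 3 rose. Fgl2, a secreted fibrinogen-like protein, was at 492, 478, 346 and 489 CPM after CGRP and 111, 185, 128 and 118 CPM after PBS (log2 fold change 1.74 ± 0.24 (SE), adjusted p = 0.000903). Of 18 genes of the adventitial subset 2 rose and 2 fell (11.1% each), with a median of -0.11. In bulk RNA of sorted cells, fewer cells of a subset and less RNA per cell cannot be told apart. Among 26 general stromal genes 2 rose (7.69%), Pdpn, the gene of podoplanin (1.36 ± 0.21, adjusted p = 0.00205), and Ly6a (0.35 ± 0.074, adjusted p = 0.00509), and 3 fell (11.5%), including the transcription factor gene Tcf4 (-0.37 ± 0.08, adjusted p = 0.00665).

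Summed transcripts of muscle fibres were lower after CGRP, and few of them passed the test singly. The sums were 175 to 232 CPM after CGRP and 240 to 358 CPM after PBS, ranges that do not overlap. Of 16 tested ones 2 fell (12.5%), Acta1, skeletal actin (-0.78 ± 0.19, adjusted p = 0.0204), and Atp2a1, the calcium pump of fast fibres (-0.85 ± 0.17, adjusted p = 0.00391), and Tcap, a protein of the sarcomere's Z-disc that was among the 10 largest falls, was at 2.53, 1.94, 2.71 and 1.68 CPM after CGRP and 6.36, 5.71, 4.86 and 9.41 CPM after PBS (log2 fold change -1.56 ± 0.35 (SE), adjusted p = 0.00827). Of 8 tested pericyte and smooth muscle markers, whose sums overlapped, only Myl9 fell in edgeR's test (-1.24 ± 0.17, adjusted p = 0.000149). The part of muscle RNA carried along in the sort in these falls was not tested. Satellite cell markers summed to 390 to 616 CPM after CGRP and 294 to 327 after PBS, led by Sdc4, a cell surface proteoglycan gene that rose (0.86 ± 0.19, adjusted p = 0.0122), while Myf5 was at 0 in every 8 h library. The call of Acta1 was lost without CGRP replicate 2 or 4 or PBS replicate 2, 3 or 4.

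Clock and glucocorticoid genes fell in part. Of 21 tested clock genes 5 fell and none rose (23.8%; median -0.35). Per3, a repressor of the clock, was at 237, 191, 204 and 152 CPM after CGRP and 411, 271, 346 and 462 CPM after PBS (log2 fold change -0.92 ± 0.22 (SE), adjusted p = 0.0186), with all CGRP libraries below all PBS libraries. Tef, a clock output factor (-0.79 ± 0.21, adjusted p = 0.0286), and the nuclear receptor Rora (-0.35 ± 0.092, adjusted p = 0.0191) also fell. Of 24 genes of the glucocorticoid response 5 fell and 1, Mt2, rose (20.8% and 4.17%, median -0.29). Klf15, a factor of metabolic control that glucocorticoids induce, was at 7.99, 7.01, 8.54 and 2.45 CPM after CGRP and 17.6, 8.93, 16.4 and 30.9 CPM after PBS (log2 fold change -1.48 ± 0.42 (SE), adjusted p = 0.0359). Klf9 (-0.61 ± 0.13, adjusted p = 0.00527) and the sulfotransferase Sult1a1 (-1.19 ± 0.18, adjusted p = 0.000638) fell. These counts leaned on single libraries: no clock gene was called without CGRP replicate 4 or without PBS replicate 4, where the list's median stayed negative (-0.41 to -0.28 over the fits without 1 library), and 2 to 6 glucocorticoid genes fell. Klf15 lost its call without CGRP replicate 1, 2 or 4 or PBS replicate 1, 3 or 4 (adjusted p up to 0.115), Per3 without CGRP replicate 4 or PBS replicate 1 or 4, Tef without CGRP replicate 1, 3 or 4 or PBS replicate 1, 3 or 4 and Rora without CGRP replicate 4 or PBS replicate 3 or 4. The sources used here do not state the hour of collection of each sample.

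Cell cycle genes were called at low levels. Of the 31 tested genes of the cell cycle list 2 fell (6.45%), the inhibitors Cdkn1b (-0.40 ± 0.10, adjusted p = 0.0130) and Cdkn1c (-0.89 ± 0.26, adjusted p = 0.0358), and none rose in edgeR's test. The list's median was 0.35, above the -0.02 of all genes, 8 members were higher at an unadjusted p under 0.05, and DESeq2 called 2 rises and limma-voom 0. Outside that list, 6 mitotic genes chosen here after their values were seen rose from low levels. In pooled counts, the spindle gene Hmmr had 50 after CGRP and 1 after PBS, a ratio of 40.7 (6.97 to 1638 by counting error, adjusted p = 0.0182), and the kinase gene Nek2 had 96 and 3, a ratio of 26.0 (8.64 to 128, adjusted p = 0.0138). The motor gene Kif23 had 63 and 5 (adjusted p = 0.0459), the kinetochore gene Nuf2 69 and 7 (adjusted p = 0.0321) and the survivin gene Birc5 77 and 12 (adjusted p = 0.0224). Cdc20, an activator of the anaphase-promoting complex, was at 1.52, 11.4, 7.91 and 9.63 CPM after CGRP and 2.54, 1.61, 1.82 and 0.672 CPM after PBS (log2 fold change 2.17 ± 0.63 (SE), adjusted p = 0.0438). The groups overlapped for Nek2, Kif23, Birc5 and Cdc20. Of the 6, only Nek2 kept its call in every fit without 1 library. Cdc20 lost it without CGRP replicate 2, 3 or 4 or PBS replicate 1, 2, 3 or 4, Nuf2 without CGRP replicate 2, 3 or 4 or PBS replicate 1, 2, 3 or 4, Kif23 without CGRP replicate 1, 2, 3 or 4 or PBS replicate 1, 3 or 4, Birc5 without CGRP replicate 3 or PBS replicate 1 or 4 and Hmmr without PBS replicate 3 or 4, and limma-voom did not call any of the 6 other than Birc5. In the list of FGF, HGF, IGF and EGF family growth factors, which also holds the PDGF ligand gene Pdgfd, 1 of 23 rose and 1 fell (4.35% each). Hbegf rose and Pdgfd fell (-0.59 ± 0.18, adjusted p = 0.0448). Cdkn1b lost its call without CGRP replicate 1 or PBS replicate 1, Cdkn1c without CGRP replicate 1, 3 or 4 or PBS replicate 1, 3 or 4 and Pdgfd without CGRP replicate 1, 2 or 4 or PBS replicate 2, 3 or 4. The remaining genes among the 10 largest falls were Svopl, a transporter-like gene (-1.48 ± 0.33, adjusted p = 0.00715), and Cd83, a surface protein of activated immune cells (-1.40 ± 0.31, adjusted p = 0.00726). Both were at low levels, with mean levels of 2.47 and 2.34 CPM after CGRP and 6.98 and 6.24 CPM after PBS.

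The other counts of 0 for a list come from the same edgeR test. At an unadjusted p under 0.05, 0 members were lower in the lists of ribosome biogenesis, ribosomal proteins, proteasome, cytosolic chaperones, amino acid response, oxidative phosphorylation and hyaluronan synthesis, and 0 CREB targets were higher; DESeq2 and limma-voom also called 0. Among the chemokines 3 were lower at an unadjusted p under 0.05, with 2 calls by DESeq2 and 0 by limma-voom. Of the inflammatory and NF-kB genes 2 were lower at that level, as were 2 of glycolysis, and both other tools called 0. Among the AP-1 genes 3 were lower at that level, with 1 call by each of the other tools, and 2 clock genes were higher, with 2 calls by DESeq2 and 1 by limma-voom.

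**Figure D4:**
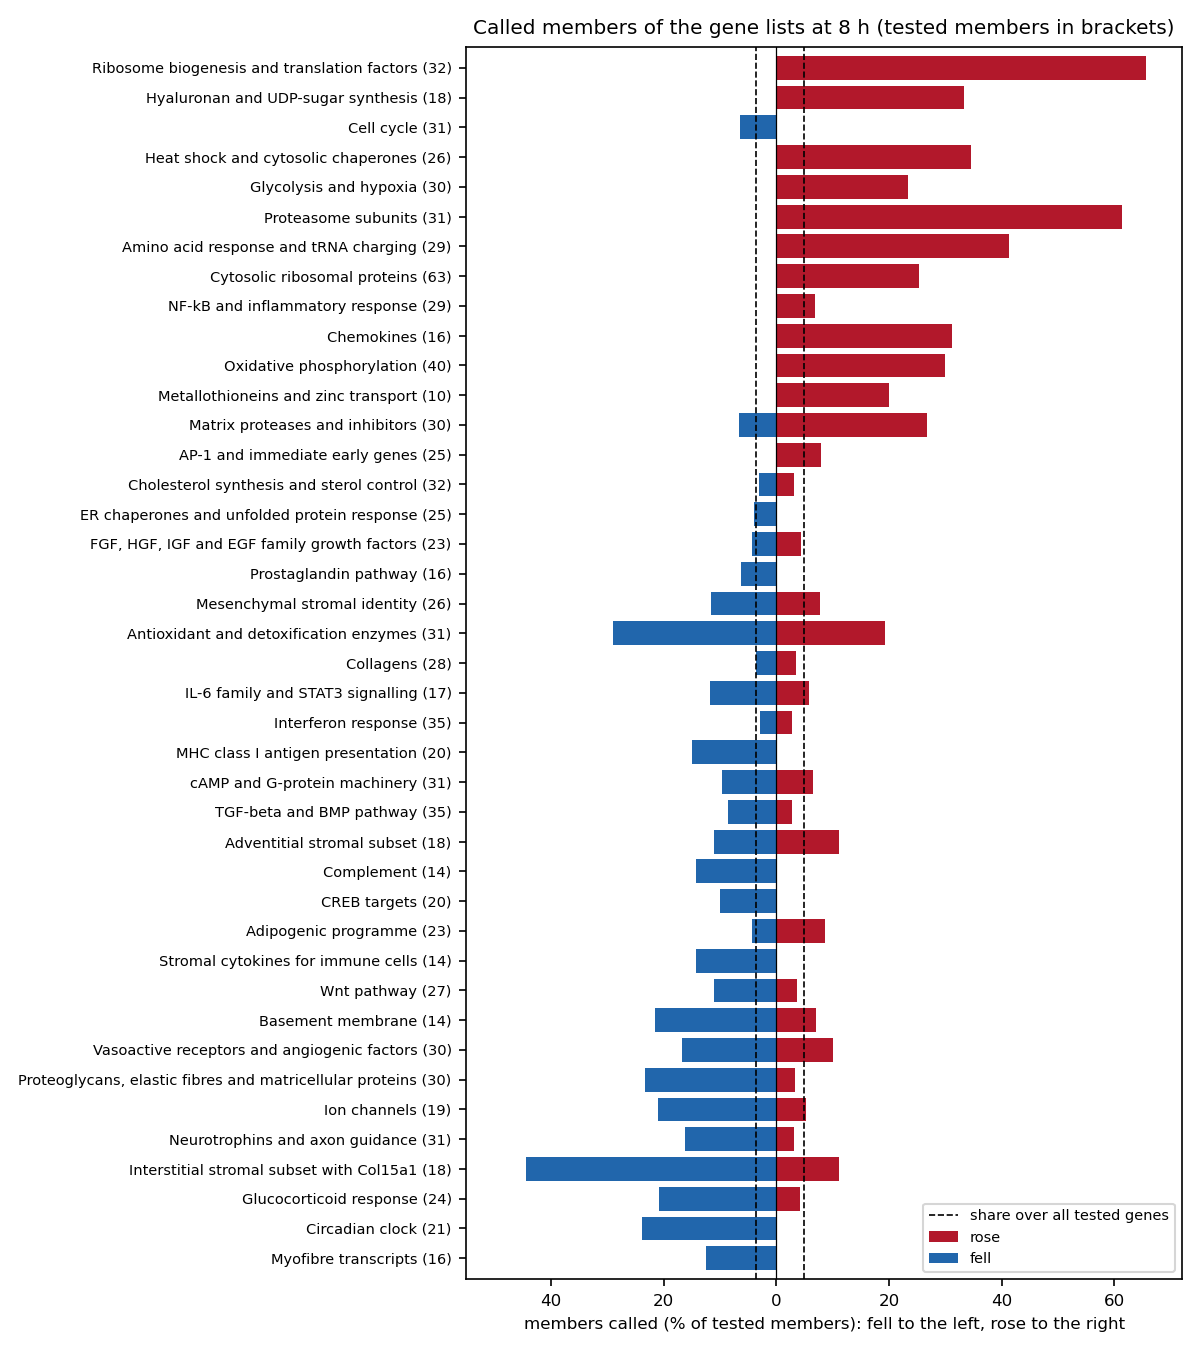
Share of the tested members of each gene list that rose (red, right) or fell (blue, left) at 8 h, in percent, with the number of tested members in brackets and dashed lines at the shares of all tested genes (5.00% rose, 3.67% fell). Ribosome biogenesis (21 of 32) and proteasome subunits (19 of 31) have the longest bars to the right, and the Col15a1 subset (8 of 18) and the detoxification enzymes (9 of 31) the longest to the left.

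The effects at 8 h were set beside those at 4 h, from libraries that the comparisons do not share. At 4 h 1094 genes rose (7.84%) and 1168 fell (8.37%). The 2 times had 324 rises in common, 46.4% of those at 8 h and 29.6% of those at 4 h, and 233 falls, 45.5% and 19.9%, while 14 genes were called in opposite directions. The difference between the effects was called for 156 genes (1.12%), of which 52 were also called at 8 h. Of these 52, 31 rises had a higher log2 fold change at 8 h than at 4 h and 7 a lower one. Of the falls, 11 had a lower log2 fold change at 8 h and 3 a higher one. The 52 were picked by a call at 8 h, which favours larger 8 h effects, so these counts do not rank the times.

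Among the genes with a higher log2 fold change at 8 h than at 4 h, Ccdc81 exceeded its 4 h effect by 2.74 ± 0.62 (adjusted p = 0.0280). Qprt, an enzyme of NAD synthesis, rose at 8 h (0.46) and had a log2 fold change of -0.72 at 4 h (adjusted p = 0.000103), a difference of 1.18 ± 0.15 (adjusted p = 0.000208). The cell death genes Mlkl and Bok had 8 h effects of 0.54 and 0.59 that exceeded their 4 h effects by 0.98 ± 0.18 and 0.98 ± 0.18 (adjusted p = 0.00693 and 0.00577). Akr1b8, an aldo-keto reductase, exceeded its 4 h effect by 0.90 ± 0.18 (adjusted p = 0.0144) and Lgals3 by 0.85 ± 0.16 (adjusted p = 0.00967). In the other direction, Ugdh was 2.33 at 4 h and 0.70 at 8 h, a difference of -1.62 ± 0.14 (adjusted p = 4.28e-07). Pmvk was 2.13 at 4 h and 0.54 at 8 h (difference -1.59 ± 0.24, adjusted p = 0.00113), and Dio2, which activates thyroid hormone, was 1.95 and 0.61 (difference -1.34 ± 0.22, adjusted p = 0.00322). Pde10a was 0.76 at 4 h and -0.58 at 8 h (difference -1.33 ± 0.21, adjusted p = 0.00165). Lvrn, an aminopeptidase gene, had 4 h and 8 h effects of 0.28 and -1.01 (difference -1.29 ± 0.27, adjusted p = 0.0236). These genes were named for the size of this difference and the values describe it. At 8 h, Mlkl lost its call without CGRP replicate 1, Dio2 without CGRP replicate 4 or PBS replicate 1 or 3, Pmvk without CGRP replicate 1, 2 or 4 or PBS replicate 1, 2, 3 or 4 and Pde10a without CGRP replicate 1 or PBS replicate 1 or 4.

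The comparison was repeated with the repeat content of the PBS libraries taken into account. Gm10800 is a gene model on chromosome 2 (chr2:98666547-98667301, mm10, reverse strand) that lies in satellite repeat sequence, and its counts may come from other copies of the repeat. It was at 6298, 6474, 5496 and 9469 CPM after CGRP and 18349, 18458, 25064 and 8808 CPM after PBS (log2 fold change -1.35 ± 0.30 (SE), adjusted p = 0.0155). PBS replicates 1, 2 and 3 were above every CGRP library and PBS replicate 4 lay among them. Without CGRP replicate 1 its log2 fold change did not pass (adjusted p = 0.0579). Of 13 tested repeat-derived models 12 fell (92.3%; median -1.35), and 5 to 12 fell without 1 library, the fewest without CGRP replicate 1. Alternatives built on the Gm10800 share say nothing about these models themselves, since the share chose the library or entered the fit.

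For genes outside the repeat list the effects were of similar size with PBS replicate 4 as the only control, and fewer passed the test. That library's spread was assumed to be that of the other groups. Against it 146 genes were called (67 rises, 79 falls), 125 of them among the 1210, and none of the 1210 turned its direction. Over the 1198 called genes outside the repeat list the effect against PBS replicate 4 alone was 1.11 times the effect against all 4 (median; middle 50% 0.921 to 1.29), with 33 genes at under 0.5 times. The fits share libraries, so this compares sizes and is no independent check. With the covariate 392 genes were called, 336 of them among the 1210, and 2 of the 1210 turned, both of them repeat models (Gm10720 and Gm10722), whose own share the covariate carries. With it 213 of all 13949 tested genes rose and 179 fell, and the list counts are to be read against these. Of proteasome subunits 1 of 31 rose, of ribosome biogenesis genes 7 of 32 and of ribosomal proteins 4 of 63. Of cytosolic chaperones 5 of 26 rose and of amino acid response genes 5 of 29. The list medians in that order were 0.34, 0.67, 0.30, 0.48 and 0.46. Against PBS replicate 4 alone they were 0.33, 0.61, 0.25, 0.46 and 0.44. Removing the repeat models before the libraries were scaled left 1191 calls. Without PBS replicate 4 696 genes were called. Of the 146 called genes named by rule or chosen after their values were seen, 29 passed against PBS replicate 4 alone and 70 with the covariate.

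**Figure D5:**
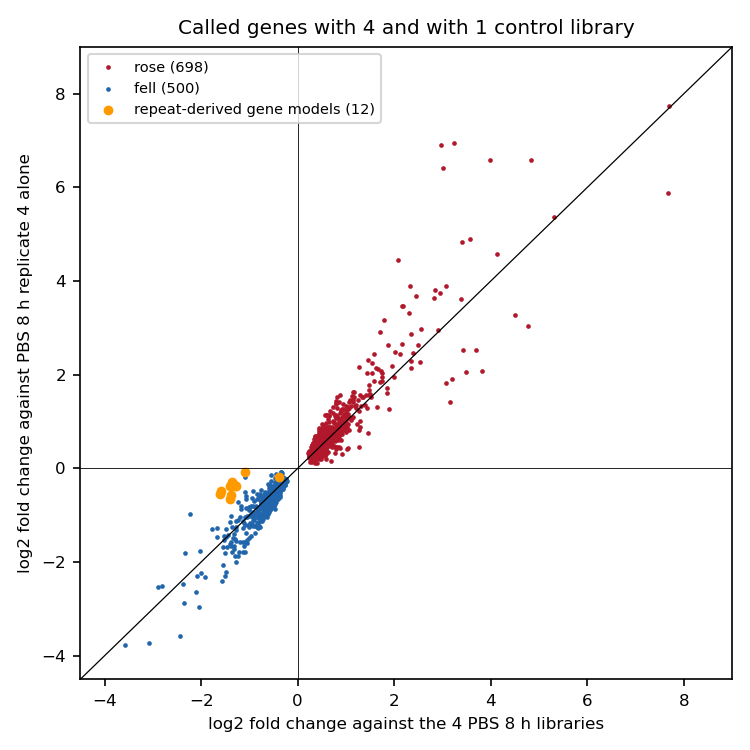
Log2 fold change at 8 h of the 1210 called genes against all 4 PBS libraries (horizontal axis) and against PBS replicate 4 alone (vertical axis), with a line of equality, rises in red, falls in blue and the 12 called repeat-derived models in orange. The genes outside the repeat list scatter around the line (median 1.11 times), and the repeat models lie nearer 0 on the vertical axis, which the choice of a control library with a low repeat share fixes.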

How the data were processed

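RNA of mesenchymal stromal cells from mouse hindlimb muscle was sequenced in 16 libraries, 4 per treatment and time. The authors deposited 1 table of unnormalised counts of reads for 52997 gene symbols. Per the submitters' processing notes, the authors aligned to mm10 with STAR 2.5.4 and counted with featureCounts. The sources used here do not give the counting options. Per the labels, libraries were made with Nextera XT, which does not mark strand, so overlapping or antisense genes cannot be told apart. No molecular identifiers mark PCR copies, so the intervals (95%, exact) and the floor (3 counts over the group) cover counting error only.

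Counts were fitted with edgeR 4.0.16 (R 4.3.3): filterByExpr over the 4 groups kept 13949 genes, TMM scaling, 1 mean per group over all 16 libraries, robust quasi-likelihood with 12 residual degrees of freedom. The coefficient of biological variation was 17.4%. The contrasts were CGRP against PBS at 8 h, the same at 4 h, and their difference. Tests were two-sided with Benjamini-Hochberg adjustment over all tested genes, called under 0.05. "Rose" and "fell" stand for such calls. Apart from the sums and ranges of cell type markers, which use total counts without TMM, CPM use TMM-scaled library sizes. They are given in the order of replicates 1 to 4, fold changes as log2 ± SE. The script was tested on simulated data. Replicate libraries of a group differed by more than counting noise (chi-square 6.52 to 18.7 times its degrees of freedom), so none was treated as a duplicate. Symbols matched GENCODE M21 for 13682 of the tested genes.

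Named genes were Il33, the receptor and peptide genes and Gm10800; the 10 highest and 10 lowest called fold changes with at least 5 CPM and no overlap, leaving out unnamed gene models; up to 3 called members of smallest p per gene list (2 for lists with fewer than 3 calls); the 5 highest and 5 lowest called differences between the times; and genes said to be chosen after their values were seen. Chosen after their values were seen were Alpl, Lgals3, Mif, Prg4, Thbs4, Slc7a11, Aars, Tars and Yars. The same holds for Eif4a1, Pes1, Birc5, Cdc20, Hmmr, Kif23, Nek2 and Nuf2. The members and the 51 gene lists, 1192 genes in all, were chosen with earlier results of these data known. Counts of list members run over those that passed the filter on low counts, 5 listed genes being not in the table. Alternatives were RLE and upper-quartile scaling, DESeq2 1.42.0, limma 3.58.1 (voom with quality weights), no filter and a stricter filter (5 CPM), the 8 h libraries only, a replicate block, leaving out each library, PBS replicate 4 alone as the control, the Gm10800 share as a covariate, and removal of repeat-derived gene models.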

Additional observations from a re-analysis of the deposited data

Results flagged for a closer look

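Among 304 groups of 4 libraries examined for the named genes, 15 held a library far from the other 3, 5 in CGRP and 10 in PBS, where chance alone gives about 1 in 20 groups. After CGRP, C1ra was 376 CPM in replicate 4 (393 to 395 in the others), Cxcl13 42.9 in replicate 1 (18.8 to 21.7) and Fgl2 346 in replicate 3 (478 to 492), and replicate 2 was apart for Pde7b at 17.6 (10.4 to 11.6) and Thbs4 at 1064 (705 to 741). After PBS, replicate 2 was apart for Ptgfr at 44.4 CPM (60.2 to 63.0 in the others), Rrp12 at 12.7 (7.60 to 8.33) and Slc7a5 at 0.879 (1.88 to 2.04). PBS replicate 4 was apart for Il11ra1 at 565 CPM (494 to 505) and for Gal at 0.403 CPM (0 in the others), PBS replicate 3 for Calcb at 1.06 (0 to 0.134) and for Yars at 79.3 (up to 75.7 in the others), and PBS replicate 1 for Tap2 at 114 (92.5 to 94.9). Hmmr was 0.127 CPM in PBS replicate 1 and Kif23 0.732 CPM in PBS replicate 2, each 0 in the other 3.

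The effect of CGRP differed between 8 h and 4 h, by the test of the difference in the edgeR fit, for 17 named genes. The 8 h effect exceeded the 4 h effect on the log2 scale by 2.74 for Ccdc81, 1.18 for Qprt, 0.98 for Bok, 0.98 for Mlkl, 0.90 for Akr1b8, 0.85 for Lgals3 and 0.51 for Ifi27. The difference was negative for Ugdh (-1.62), Pmvk (-1.59), Dio2 (-1.34), Pde10a (-1.33), Lvrn (-1.29), Uap1 (-1.26), Scn7a (-0.61) and Cdkn1b (-0.58). It was also negative for the repeat-derived models Gm10719 (-1.81) and Gm10715 (-1.60), which moved with the Gm10800 share of the PBS libraries; the part of that share in these differences was not tested.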

How the results depend on the processing

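The count of called genes (1210, of which 698 rose and 512 fell) was 577 to 1279 when 1 library was left out, with 332 to 802 rises and 245 to 477 falls, and that of differences between the times (156) was 80 to 192. With the replicate block 780 genes were called (456 rose, 324 fell) and 81 differences, 740 of the calls being among the 1210. Same-numbered libraries did not deviate together (correlations 0.04, -0.10, -0.03 and -0.19) and only CGRP replicate 1 correlated best with its own number, so the values give no sign of pairing; what the numbers stand for is not given in the labels. PBS replicate 4 alone as the control gave 146 calls (67 rose, 79 fell) and 53 differences, and the Gm10800 covariate 392 (213 rose, 179 fell) and 88. DESeq2 gave 427 differences and the fit with no filter 456. Ramp2, not called, ranged from -0.021 (without CGRP replicate 3) to 0.16 when 1 library was left out and was -0.11 with the covariate, a change of sign from its 0.07. Slc7a11, not called, ranged from -0.14 (without CGRP replicate 1) to 0.75 and was -0.012 by limma-voom. The cause of these changes was not tested. RLE, upper-quartile scaling, DESeq2, limma-voom, both filters, the 8 h libraries alone and removal of repeat-derived models kept the counts at 8 h within 1.5 times. Of 146 called named genes 89 were called in all 8 fits without 1 library and 26 in all 19 alternatives; 572 of 2676 list counts or medians moved. Rises of a few counts, such as those of Calcb and Ramp3, are limited by depth.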
